A study of Homo sapiens with 18 samples.

Results

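The human mitochondrial genome is a small circle that carries 37 genes, and all 37 genes whose symbol begins with MT- were taken from the count tables of NCI-H1975 cells, a line grown from a lung adenocarcinoma. They are 13 mRNAs, 2 rRNAs and 22 tRNAs, out of 61487 counted genes. The mRNAs encode core subunits of the respiratory chain, of which 7 belong to complex I, 1 to complex III, 3 to complex IV and 2 to the ATP synthase (complex V). The groups were sgDAMP cells (knockout of DAMP, the peptide assigned to the lncRNA gene DSP-AS1), sgControl cells (CRISPR control) and Scramble cells (a further control). Each condition was measured as ribosome footprints, the RNA stretches that ribosomes shield from nuclease, and as poly(A)-selected mRNA, with 3 libraries per group and 18 in all. Cells for footprints were harvested after cycloheximide at 100 micrograms per ml. The labels do not say whether the knockout is 1 clone or a pool, nor whether replicates are separate cultures, so p-values measure only the spread between these libraries.

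Both strands of the mitochondrial genome are transcribed into long precursors, and most mRNAs and rRNAs are released by cutting out the tRNAs that lie between them. The transcript named heavy after its template strand holds both rRNAs, 14 of the tRNAs and all mRNAs but MT-ND6, and the light transcript holds MT-ND6 and 8 tRNAs. The mRNAs have hardly any untranslated sequence, are read by mitochondrial ribosomes built on the 2 rRNAs, and are joined in the inner membrane to subunits made in the cytosol from nuclear genes. Cycloheximide is known to stall cytosolic ribosomes and not mitochondrial ones. Most mitochondrial mRNAs carry short poly(A) tails in human cells, while MT-ND6 is known to lack one.

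Several properties of the libraries touch the results below. DSP-AS1 had 0, 1 and 1 footprints in sgDAMP cells, against 175, 176 and 216 in sgControl cells, while its mRNA libraries held 319, 324 and 336 counts in sgDAMP cells and 299, 328 and 309 in sgControl cells. The depth in gene counts was 6207783 to 6864945 for sgDAMP footprint libraries, 6845899 to 7840852 for sgControl and 1035159 to 1302852 for Scramble ones. Among mRNA libraries it was 17171514 to 17455799 for sgDAMP, 17098397 to 17464782 for sgControl and 10859527 to 12424884 for Scramble. The 3 footprint libraries of sgDAMP, and those of sgControl, differed by no more than sampling noise on average without the most variable genes. The mean chi-square over its degrees of freedom was then 0.910 in sgDAMP and 0.909 in sgControl, against 4.11 to 64.7 in the other groups. Among mitochondrial mRNAs the value per gene ran from 0.0026 (MT-CO2) to 3.6 (MT-CO3) in sgDAMP footprints. In sgControl footprints it ran from 0.137 (MT-ATP8) to 4.51 (MT-CYB). Because of the low average, the libraries of sgDAMP, and those of sgControl, were summed and counted as 1 sample each. Footprints of these groups have no replicate check. Reads assigned to no feature made up 42.5% to 43.2% of all reads in Scramble mRNA, against 1.1% to 1.43% in the other mRNA libraries, and no test here sets Scramble against the other conditions. All 6 epithelial markers (EPCAM, CDH1, KRT7, KRT8, KRT18 and KRT19) reached 1 CPM (the usual scaling of counts to a library's total of gene counts) in sgDAMP and sgControl footprints, and 4 of 6 did so in each other group.

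The 3 RNA classes were unevenly represented between assays. Of gene counts, the 13 mRNAs held 0.541% to 0.556% in sgDAMP, 0.412% to 0.427% in sgControl and 0.306% to 0.317% in Scramble footprint libraries. In mRNA libraries they held 2.07% to 2.68% in sgDAMP, 1.71% to 2.49% in sgControl and 1.62% to 1.76% in Scramble cells. Of all gene counts, mitochondrial mRNAs thus took a smaller share in footprints than in mRNA in each of the 3 conditions. The denominator matters in Scramble footprints, since the 2 rRNAs alone held 58.3%, 52.4% and 71.7% of gene counts there. Set against counts of protein-coding genes only, the 13 mRNAs held 1.49%, 1.60% and 4.71% in the Scramble footprint libraries, 0.702% to 0.724% in sgDAMP footprints and 0.517% to 0.537% in sgControl footprints. On that denominator they held 2.12% to 2.74% in sgDAMP mRNA, 1.74% to 2.55% in sgControl mRNA and 1.74% to 1.89% in Scramble mRNA, so the third Scramble footprint library lay above the mRNA range and the others below it. In such bulk libraries, fewer mitochondria per cell and less RNA per mitochondrion cannot be told apart.

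**Figure D1:**
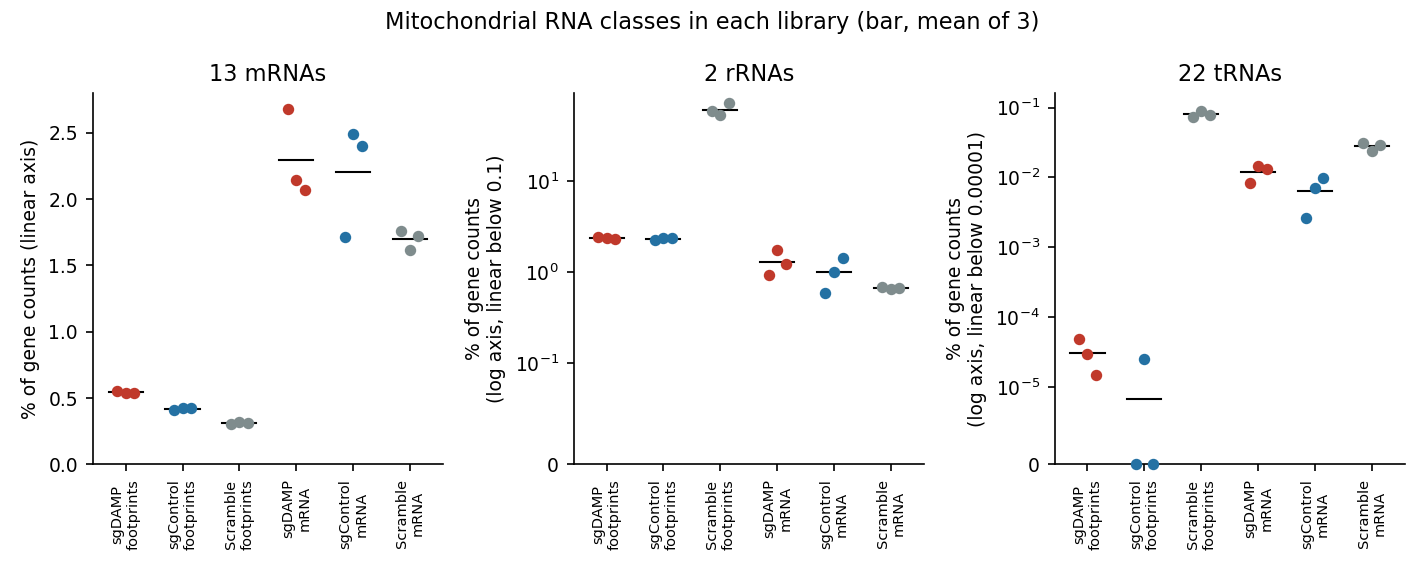
Share of gene counts held by the 13 mitochondrial mRNAs, the 2 rRNAs and the 22 tRNAs in each of the 18 libraries (points, 1 per library; bars, means of 3; the left panel has a linear axis, the others a log axis that turns linear near 0). The rRNAs take 52.4% to 71.7% of Scramble footprints and at most 2.42% of every other library, and tRNA counts are near 0 in sgDAMP and sgControl footprints.

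Per kilobase of gene, the mRNA libraries of sgDAMP and sgControl cells shared 1 order at the top. MT-ND3 (a small membrane subunit of complex I) was first with 32.9 ± 5.26% of the per-kilobase total of the 13 in sgDAMP and 32.3 ± 3.84% in sgControl mRNA (SD, n = 3 each). MT-CO3 followed with 21.2 ± 1.78% and 19.9 ± 2.19%, and MT-CO2 with 16.5 ± 0.448% and 17.1 ± 0.850%, in sgDAMP and sgControl mRNA. MT-CO3 and MT-CO2, both subunits of complex IV, lay further apart than their SDs in sgDAMP and closer than their summed SDs in sgControl mRNA. In sgDAMP mRNA the neighbours from MT-ATP6 down to MT-ND1 were closer to each other than their summed SDs. The Scramble mRNA libraries gave another order, with MT-CO2 at 21.8 ± 1.42%, MT-CO1 (the catalytic subunit of complex IV) at 19.4 ± 0.344%, MT-CO3 at 16.4 ± 0.835% and MT-ND3 only at 6.89 ± 0.209% (SD, n = 3). MT-ATP8 was last in all 3 conditions, at 0.190% in sgDAMP, 0.0917% in sgControl and 0.268% in Scramble mRNA. The differences between Scramble and the other mRNA sets were not tested.

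The order of footprints per kilobase differed from that of mRNA. In both sgDAMP and sgControl footprints MT-ND3 was first (17.7% and 18.1% of the per-kilobase total of the 13), followed by MT-CO3 (16.8% and 16.9%), MT-CYB (14.8% and 15.6%) and MT-ND5 (11.7% and 12.99%). MT-CYB is the only mitochondrially encoded subunit of complex III, and MT-ND5 is the distal proton-pumping subunit of complex I. In Scramble footprints MT-ND5 was first at 14.2 ± 1.95%, and the next 2, MT-ND4L at 13.5 ± 3.29% and MT-CO3 at 12.6 ± 1.46%, lay within its spread (SD, n = 3). MT-ND1 followed at 11.7 ± 1.28%, outside the SD of MT-ND5 but nearer to it than their summed SDs. MT-ND2, another complex I subunit, was last or next to last in the 3 footprint sets, at 0.778% in sgDAMP, 0.802% in sgControl and 0.401% in Scramble footprints.

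**Figure D2:**
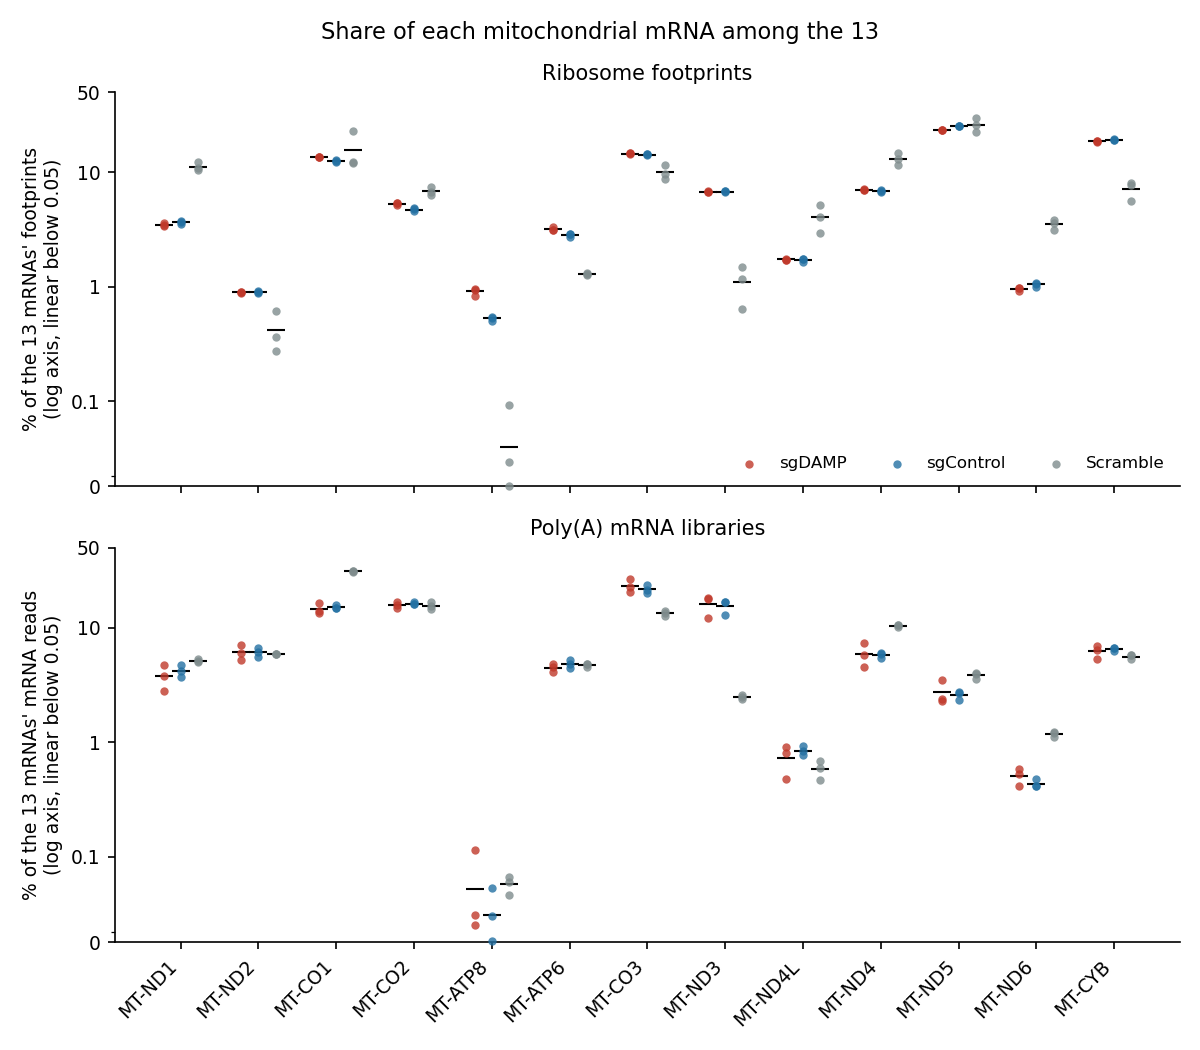
Share of each of the 13 mitochondrial mRNAs among their summed footprints (top) and mRNA reads (bottom), on a log axis that is linear below 0.05%, with genes in genome order; points are libraries and bars are means of 3. MT-ND5 holds over 22% of footprints and at most 3.99% of mRNA reads in every library, and MT-ND2 holds under 1% of footprints and over 5% of mRNA reads.

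Dividing the footprint share of a gene among the 13 by its mRNA share gives a relative occupancy that needs neither gene length nor library scaling. It does depend on how reads that match both a gene and a nuclear copy were assigned, which is not known. MTND4P12, a nuclear copy of MT-ND4, had 14.26% of the MT-ND4 count in sgDAMP footprints and 0.00416% in sgDAMP mRNA. The part of read assignment in the ratios below was not tested. MT-ND5 held 23.2%, 23.4% and 23.2% of the 13 mRNAs' footprints in the sgDAMP libraries, 25.4%, 25.2% and 25.2% in the sgControl libraries and 29.7%, 25.5% and 22.3% in the Scramble libraries. Its share of the mRNA reads was 3.47%, 2.30% and 2.404% in sgDAMP, 2.77%, 2.67% and 2.36% in sgControl and 3.96%, 3.99% and 3.58% in Scramble cells. Every footprint library therefore lay far above every mRNA library for this gene, though shares of most of the 13 did not overlap either. Its relative occupancy was 8.55 in sgDAMP, 9.71 in sgControl and 6.68 in Scramble cells, and over the single mRNA libraries it ranged from 6.71 to 10.1 in sgDAMP cells, so the sgControl value lies inside the sgDAMP range.

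In each condition 6 of the 13 mRNAs had a relative occupancy above 1. MT-ND5, MT-CYB, MT-ND4L, MT-ND6 and MT-ND4 were among the 6 in all 3 conditions. MT-ND4 stood close to 1, at 1.19 in sgDAMP, 1.18 in sgControl and 1.24 in Scramble cells. Over the single sgDAMP mRNA libraries the MT-ND4 value ran from 0.948 to 1.54. MT-CYB stood at 2.98 in sgDAMP, 2.92 in sgControl and 1.26 in Scramble cells. MT-ND4L, the small complex I subunit whose reading frame runs into that of MT-ND4 by 7 bases, stood at 2.37, 2.04 and 6.78 in sgDAMP, sgControl and Scramble cells. MT-ND6, the only mRNA of the light transcript, stood at 1.87, 2.404 and 2.96 in the same order of conditions. Since MT-ND6 is known to lack a poly(A) tail, its mRNA share comes from libraries selected for one.

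At the other end MT-ND2 had the lowest relative occupancy in all 3 conditions. It held 0.886%, 0.892% and 0.890% of the 13 mRNAs' footprints in sgDAMP, 0.879%, 0.920% and 0.892% in sgControl and 0.276%, 0.366% and 0.609% in Scramble libraries. Its mRNA shares were 7.04%, 5.22% and 5.99% in sgDAMP, 5.60%, 6.64% and 6.18% in sgControl and 5.85%, 5.86% and 5.93% in Scramble cells. The relative occupancy was 0.146 in sgDAMP, 0.146 in sgControl and 0.0727 in Scramble cells. Footprint and mRNA shares of MT-ND2 did not overlap, which was so for most of the 13 mRNAs in each condition. The footprint libraries of sgDAMP, and those of sgControl, count as 1 sample each. Among the complex IV subunits, MT-CO2, which receives electrons from cytochrome c, stood at 0.337, 0.288 and 0.435, MT-CO3 at 0.624, 0.657 and 0.739, and MT-CO1 at 0.929, 0.822 and 0.517 in sgDAMP, sgControl and Scramble cells. Over the single Scramble footprint libraries the MT-CO1 value ran from 0.389 to 0.732. MT-ND3 stood at 0.419, 0.434 and 0.454, so its first place per kilobase in sgDAMP and sgControl footprints came with a still larger place in mRNA.

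The pair of ATP synthase subunits read from 1 bicistronic mRNA had unlike relative occupancies. MT-ATP6, which forms the proton path beside the rotor, had a relative occupancy of 0.706 in sgDAMP, 0.582 in sgControl and 0.271 in Scramble cells. MT-ATP8, a short stalk subunit whose frame overlaps that of MT-ATP6 by 46 bases (MT-ATP8 at MT 8366 to 8572, MT-ATP6 at MT 8527 to 9207, GRCh38), had 17.2, 19.7 and 0.630. The MT-ATP8 value rests on few mRNA reads, 528, 63 and 95 counts in sgDAMP and 2, 111 and 224 in sgControl libraries, and over the single mRNA libraries it ran from 7.89 to 53.8 in sgDAMP and 9.85 to 781 in sgControl cells. In Scramble footprints it had 0, 3 and 1 counts. Reads in an overlap can be credited to either gene or to none, and the rule used in counting is not given in the sources used here. Although both frames lie on 1 mRNA, sgDAMP mRNA held 686 counts of MT-ATP8 and 53741 of MT-ATP6. Per kilobase these were 0.190% and 4.75% of the total of the 13. The cause of that gap was not tested, so the ratios do not show that the 2 frames are translated differently.

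**Figure D3:**
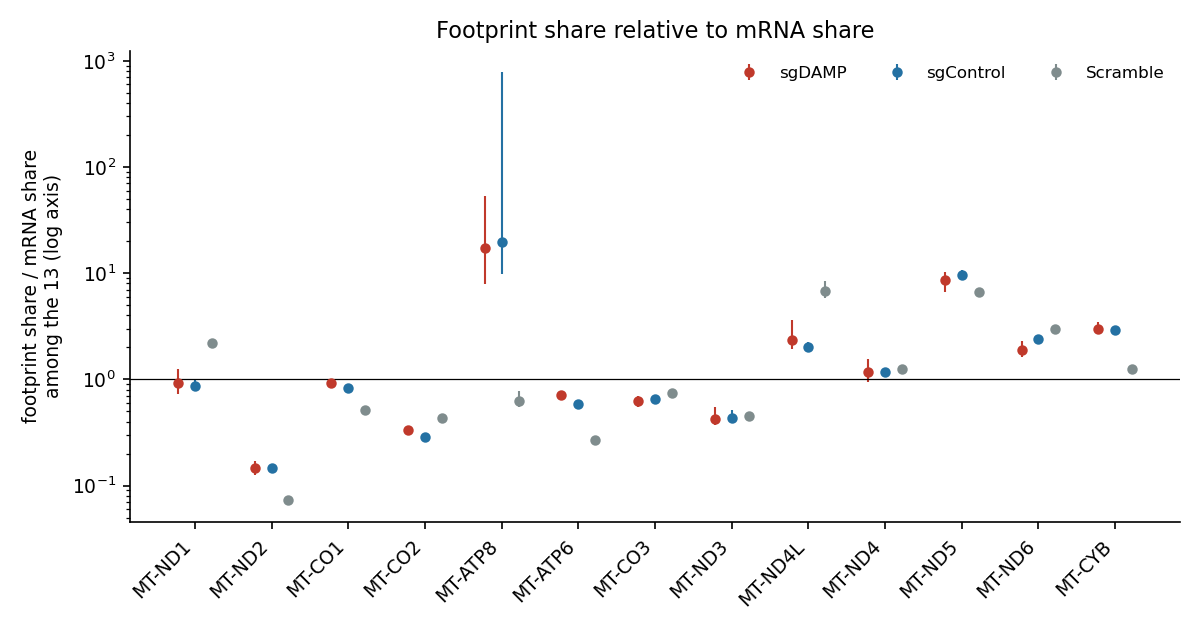
Footprint share over mRNA share among the 13 mitochondrial mRNAs, on a log axis, with genes in genome order. Points use the summed footprints and the mean mRNA share, and lines span the values with each of the 3 mRNA libraries alone; MT-ND5 lies between 6.68 and 9.71, MT-ND2 between 0.0727 and 0.146, and MT-ATP8 has the widest span. The spread over footprint libraries is not drawn, and for MT-CO1 in Scramble cells it was wider (0.389 to 0.732) than that over mRNA libraries (0.513 to 0.524).

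No mitochondrial transcript passed the test for a difference in amount between sgDAMP and sgControl mRNA libraries. Of the 13 mRNAs 0 passed edgeR's quasi-likelihood test at a Benjamini-Hochberg adjusted p under 0.05, against 0% of the 14032 genes tested (741 had an unadjusted p under 0.05, and the DESeq2 Wald test called 21). Their log2 changes ran from -0.29 for MT-ND4L to 0.87 for MT-ATP8, with a median of -0.10 against 0.03 over all genes tested. MT-CO1 had 4421, 2874 and 2871 CPM in sgDAMP, against 2559, 3714 and 3767 CPM in sgControl libraries, a log2 change of -0.13 (SE 0.29, edgeR adjusted p 0.928). The sgDAMP and sgControl values overlapped for 13 of 13 mRNAs, while 11.1% of all tested genes had groups that did not overlap. Replicate 1 of sgControl was the lowest of its group for 13 of 13 mRNAs, and replicate 1 of sgDAMP was the highest of its group for 11 of 13. The change of MT-ATP8 (SE 0.90, edgeR adjusted p 0.865) turned to -0.52 without sgDAMP replicate 1, the library with 528 of its counts.

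Both rRNAs and the single tRNA that could be tested gave the same picture in mRNA libraries. MT-RNR2, the large-subunit rRNA, had 7149, 13812 and 9799 CPM in sgDAMP, against 4326, 7909 and 11040 CPM in sgControl libraries, a log2 change of 0.30 (SE 0.37, edgeR adjusted p 0.876). MT-RNR1, the small-subunit rRNA, had 2041, 3750 and 2496 CPM in sgDAMP, against 1579, 2121 and 3383 CPM in sgControl libraries, a log2 change of 0.12 (SE 0.34, edgeR adjusted p 0.943). The groups overlapped for both. MT-TP, the proline tRNA, had 1411, 2491 and 2228 counts in sgDAMP, against 456, 1186 and 1697 in sgControl libraries, and its log2 change of 0.78 (SE 0.39, edgeR adjusted p 0.862) missed the threshold. In MT-RNR1 the sign turned when sgDAMP replicate 2 (-0.16) or sgControl replicate 1 (-0.08) was left out.

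Footprints of mitochondrial mRNAs were somewhat more frequent in sgDAMP than in sgControl cells. The 13 together had 108719 footprints in sgDAMP and 94758 in sgControl cells, a ratio of 1.11 (95% interval 1.103 to 1.122) after scaling by TMM (trimmed mean of M values, which sets most genes to no change). The ratio was 1.30 (1.28 to 1.31) when scaled to total gene counts, which moves the median of all genes by 0.22 on the log2 scale. These exact intervals allow for counting error alone, as the reads carry no molecular identifiers and may be copies of one another. They may be too narrow for genes whose libraries differed by more than that, such as MT-CYB in sgControl footprints (chi-square per degree of freedom 4.51). Of the 13 mRNAs 0 reached a ratio of 2 either way, against 12.8% of the 14289 genes compared (7.42% higher and 5.33% lower), and 13 of 13 ratios lay above 1, against 50.5% of all genes compared. For 12 of 13 the counting interval lay above 1, the exception being MT-ND6 at 1.02 (0.932 to 1.11). Over all genes compared 28% did so, but such intervals narrow as counts rise, and genes of like depth were not compared. MT-ND5, with 25324 footprints in sgDAMP and 23931 in sgControl cells, cleared 1 at a ratio of 1.03 (1.01 to 1.04). The 28% is therefore no like background. All but MT-ND6 lie on the heavy transcript and each condition is 1 summed sample, so these are not 13 separate results. With no replicate check, no test was made.

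By complex, the ratio of summed footprints was 1.36 (1.30 to 1.42) for the ATP synthase pair, 1.18 (1.16 to 1.20) for complex IV, 1.08 (1.055 to 1.098) for MT-CYB of complex III and 1.06 (1.05 to 1.08) for complex I. MT-ATP8 had 324, 307 and 354 footprints in sgDAMP, against 154, 177 and 167 in sgControl libraries, a ratio of 1.92 (1.72 to 2.14). As the libraries of a group count as 1 sample, the gap between these counts is no replicate check. The log2 value of 0.94 for MT-ATP8 became 1.01, past a ratio of 2, when sgDAMP replicate 2 was left out, and total-count scaling also took it past 2. MT-CO2 had 288.7, 289.3 and 289.2 CPM of footprints in sgDAMP, against 198.4, 193.2 and 200.6 CPM in sgControl libraries, a TMM-scaled ratio of 1.26 (1.21 to 1.31). MT-CO1 stood at 1.21 (1.18 to 1.24) and MT-CO3 at 1.13 (1.11 to 1.16), so all 3 complex IV subunits lay on the same side.

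MT-ATP6 had 1133, 1158 and 1154 footprints in sgDAMP, against 763, 959 and 947 in sgControl libraries, a ratio of 1.25 (1.19 to 1.32). Its nuclear copy MTATP6P1 had 773 footprints in sgDAMP and 826 in sgControl cells, 22.4% and 31.0% of the MT-ATP6 count. How reads that match both were assigned is not known, so the split between the gene and its copy is uncertain, and its part in the ratio was not tested. The complex I subunits lay between 1.02 (MT-ND6) and 1.14 (MT-ND4), and MT-ND5, at 25324 footprints in sgDAMP and 23931 in sgControl cells, stood at 1.03 (1.01 to 1.04). Within the 13, the share of MT-ND5 was 23.29% in sgDAMP (exact interval 23.04% to 23.55%), against 25.25% in sgControl cells (24.98% to 25.53%). The share of MT-ATP8 was 0.906% (0.851% to 0.964%) in sgDAMP, against 0.526% (0.481% to 0.574%) in sgControl cells.

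The rRNA reads in the same footprint libraries went their own ways. MT-RNR2 had 139968, 150832 and 146834 reads in sgDAMP, against 145140, 174150 and 172501 in sgControl libraries, a ratio of 0.863 (0.859 to 0.866). MT-RNR1 had 9981, 10364 and 10355 reads in sgDAMP, against 8375, 9920 and 10015 in sgControl libraries, a ratio of 1.05 (1.03 to 1.07). Ribosomal RNA was depleted in these libraries, and the rRNA counts of libraries of 1 group differed beyond sampling noise, with a chi-square per degree of freedom of 80.7 in sgDAMP and 105 in sgControl footprints for MT-RNR2. Of the 22 tRNAs 0 had enough footprints to compare.

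**Figure D4:**
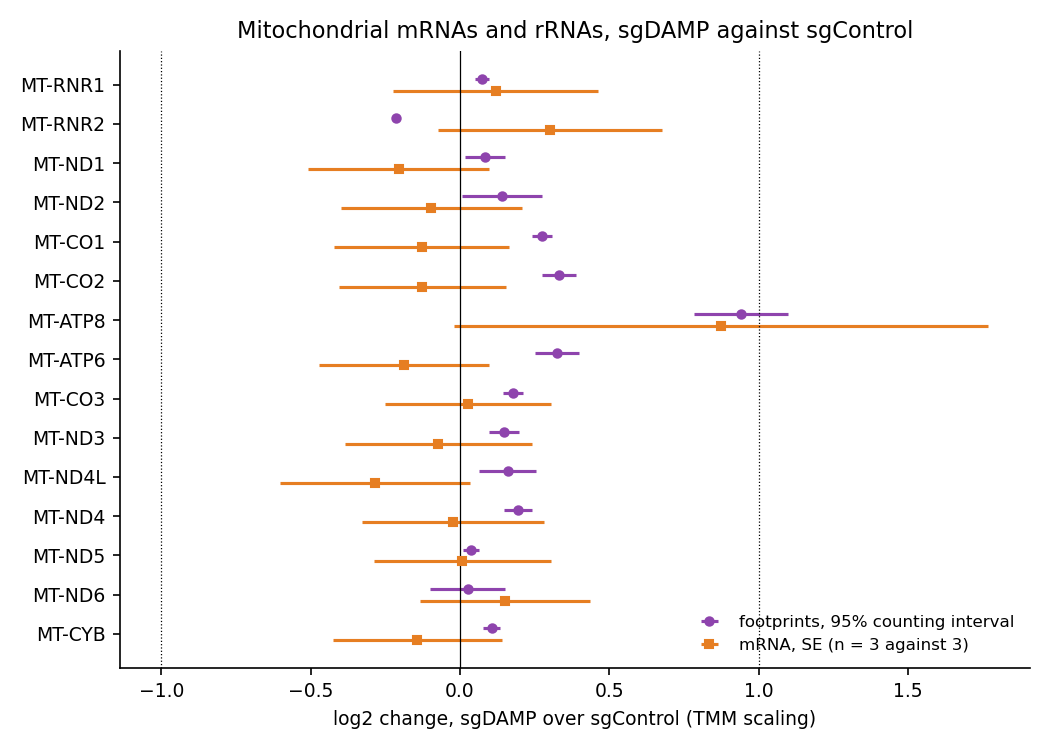
Log2 change of sgDAMP over sgControl for the 2 rRNAs and 13 mRNAs, in footprints (circles, summed libraries with 95% counting intervals) and in mRNA (squares, edgeR log2 change with SE, n = 3 against 3). Dotted lines mark a ratio of 2 either way; footprint ratios of the 13 mRNAs lie above 1 and under 2, while the mRNA changes spread on both sides of 0 with wider errors.

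Relative to mRNA, the footprint change passed the test for 0 of the 13 mRNAs. The interaction of assay and condition in edgeR called 0.258% of the 19357 genes tested (0.031% higher and 0.227% lower). The log2 values ran from -0.11 for MT-ND6 to 0.52 for MT-ATP6 and were positive for 12 of 13, with a median of 0.24 against 0.002 over all genes tested. Their SE ran from 0.56 to 1.59 and every adjusted p was 0.99998, so a change of the size seen in footprints was not detectable here. The summed footprint samples were assumed to vary like the mRNA libraries in that fit. MT-RNR2 gave -0.51 (SE 0.70) and MT-RNR1 -0.04 (SE 0.66).

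Nuclear genes that work with the mitochondrial genome were counted in the same comparisons, from lists chosen with earlier results of these data known. In mRNA libraries 0 members of any of the 9 lists were called. TFAM, which packages mitochondrial DNA and starts its transcription, had a footprint ratio of 0.744 (0.712 to 0.777), and POLRMT, the mitochondrial RNA polymerase, one of 1.46 (1.15 to 1.87). LRPPRC, which holds mitochondrial mRNAs stable together with SLIRP, stood at 1.25 (1.17 to 1.33), and SLIRP at 1.01 (0.989 to 1.04). Of the mitochondrial elongation factors, TUFM stood at 1.31 (1.20 to 1.43) and GFM1 at 0.979 (0.943 to 1.02). None of these 6 reached a ratio of 2.

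A few list members passed a ratio of 2 in footprints. Over all genes compared 7.42% did so upward and 5.33% downward, so the members are named for their values and the counts are no result about the lists. Of the nuclear subunits of complex I, 1 of 36 was higher (NDUFA5, with 41, 48 and 46 footprints in sgDAMP, against 16, 18 and 26 in sgControl libraries). Among 8 transcription genes TFB1M was higher, at 2.64 (1.65 to 4.35), and MTERF1 lower, at 0.414 (0.291 to 0.582). Among 26 assembly factors of complexes IV and I the 3 higher ones were SURF1 at 2.94 (1.95 to 4.53), PET100 at 2.26 (1.60 to 3.24) and COA5 at 2.06 (1.45 to 2.97). MTRF1L, a release factor, was the single higher one of 14 translation factors, at 2.29 (1.37 to 3.96). The nuclear subunits of complexes III, IV and V, complex II and the RNA processing genes had 0 on either side. The interaction called 0 members of any list.

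In Scramble cells, footprints and mRNA were compared directly, and the 13 mRNAs parted in both directions. Of the 13, 6 were higher in footprints (against 17.1% of all 14432 genes tested), 2 were lower (against 27.4%) and 5 did not pass, so that 8 were called against 44.5% of all genes. MT-ND5 had 907, 809 and 702 CPM in footprints, against 697, 645 and 618 CPM in mRNA, a TMM-scaled log2 difference of 3.34 (SE 0.32, edgeR adjusted p 2.3e-09). MT-ND4L had 124, 162 and 92.1 CPM in footprints, against 105, 111 and 81.3 CPM in mRNA, a difference of 3.28 (SE 0.23, edgeR adjusted p 4.1e-12). In CPM the MT-ND4L values of the assays overlapped, so its difference rests on the scaling. MT-ND6 (2.12), MT-ND1 (1.82), MT-ND4 (0.93) and MT-CYB (0.89) were the other 4.

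The mRNAs lower in footprints were MT-ND2 and MT-ATP6. MT-ND2 had 8.45, 11.6 and 19.2 CPM in footprints, against 1029, 947 and 1023 CPM in mRNA, a difference of -3.24 (SE 0.38, edgeR adjusted p 7.6e-08). These groups did not overlap in CPM. Scaling to total counts calls 90.4% of all genes tested lower, so the gap in CPM is no further result about MT-ND2. MT-ATP6 had 38.9, 41.5 and 40.7 CPM in footprints, against 804, 786 and 834 CPM in mRNA, a difference of -1.33 (SE 0.29, edgeR adjusted p 0.00060). MT-CO1, MT-CO2, MT-CO3, MT-ND3 and MT-ATP8 did not pass, with log2 values from -0.59 to 0.21.

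Most of these calls changed with the scaling. The median of all tested genes lay at -0.68, and total-count scaling, in which the rRNA reads count, moved it by -2.85. Of the 13, total-count scaling called 0 higher (against 3.33% of all genes tested) and 10 lower (against 90.4%). With at least 10 counts in every library MT-CYB (-0.09) and MT-ND4 (-0.04) lost their calls, and without footprint replicate 3, whose rRNA share was 71.7%, 6 mRNAs were lower. The share of all genes lower without that replicate was not computed. MT-ND2 and MT-ATP6 stayed lower under these 3 settings, and MT-ND5 and MT-ND4L kept a positive sign in all 3, at 0.30 and 0.35 under total counts, where neither passed.

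The rRNAs filled the Scramble footprint libraries. MT-RNR1 had 375224, 334214 and 462899 reads in footprints, against 9100, 8939 and 8830 in mRNA, and MT-RNR2 had 315334, 208606 and 471109 reads in footprints, against 70863, 71525 and 63195 in mRNA. Their log2 differences were 11.89 (SE 0.66, edgeR adjusted p 2.6e-14) for MT-RNR1 and 8.81 (SE 0.64, edgeR adjusted p 7.3e-12) for MT-RNR2 under TMM, and 8.75 and 5.55 under total counts, where both also passed. The ratio of MT-RNR1 to MT-RNR2 reads was 0.0687 to 0.0713 in sgDAMP, 0.0570 to 0.0581 in sgControl and 0.983 to 1.60 in Scramble footprints. In mRNA libraries it was 0.255 to 0.285 in sgDAMP, 0.268 to 0.365 in sgControl and 0.125 to 0.140 in Scramble cells. The balance of the 2 rRNAs thus differed more between footprint sets than between mRNA sets, with rRNA depletion stated for the footprint libraries as a whole.

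The tRNAs, which carry no poly(A) tail and are not translated, were read almost only in certain libraries. The footprint libraries held 3, 2 and 1 tRNA counts in sgDAMP, 0, 2 and 0 in sgControl and 864, 921 and 1010 in Scramble cells. In Scramble footprints 10 of 14 tRNAs of the heavy transcript and 3 of 8 of the light transcript had a count. MT-TS2, a serine tRNA, had 207, 226 and 221 counts in Scramble footprints and 0 in Scramble mRNA. MT-TL1, a leucine tRNA, had 115, 127 and 167, MT-TF, for phenylalanine, 121, 71 and 168, and MT-TH, for histidine, 48, 70 and 55 counts in Scramble footprints, each against 0 in Scramble mRNA. With a floor of 3 counts over the group and TMM scaling, MT-TS2 was at least 15781-fold higher in footprints, and under total counts at least 2158-fold.

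Of the 22 tRNAs 13 could be tested in Scramble cells, and under TMM 10 were higher (against 17.1% of all genes tested) and 1 lower in footprints (against 27.4%). Under total counts 9 were higher (against 3.33%) and 3 lower (against 90.4%). Besides MT-TS2, MT-TL1, MT-TF and MT-TH the higher ones under TMM were MT-TL2, MT-TG, MT-TT, MT-TC, MT-TY and MT-TP. MT-TY, for tyrosine, had 12.7, 22.2 and 24.6 CPM in footprints, against 18.4, 15.1 and 15.7 CPM in mRNA, which overlap. Its log2 difference was 3.20 under TMM (SE 0.37, edgeR adjusted p 6.2e-08) and 0.28 under total counts (edgeR adjusted p 0.326), so its call rests on the scaling. MT-TP had 224, 253 and 214 counts in footprints, against 362, 382 and 351 in mRNA, a TMM-scaled log2 difference of 5.66 (SE 0.29, edgeR adjusted p 6.3e-15), and 2.66 under total counts, where it also passed. The lower one was MT-TS1, the other serine tRNA, with 0 counts in footprints, against 2875, 2296 and 2538 in mRNA, at least 35.5-fold lower on the same floor under TMM and at least 259.6-fold lower under total counts. MT-TQ and MT-TE, with 0 counts in footprints, against 239 and 101 summed counts in mRNA, did not pass under TMM and were lower under total counts.

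In mRNA libraries the tRNA counts came almost wholly from genes of the light transcript. The summed counts of light-transcript and of heavy-transcript tRNAs were 6177 and 5 in sgDAMP, 3346 and 0 in sgControl and 9740 and 35 in Scramble mRNA. MT-TP made up 6130 of the sgDAMP, 3339 of the sgControl and 1095 of the Scramble counts. MT-TS1 had 0 counts in sgDAMP and sgControl mRNA and 7709 in Scramble mRNA, where MT-TY had 571. MT-TS1 lies at MT 7446 to 7514, next to the end of MT-CO1 at MT 7445 and on the opposite strand. The human MT-CO1 mRNA is known to run on through the complement of MT-TS1. Whether counting used the strand is not given in the sources used here, so reads of a light-transcript tRNA and of RNA from the opposite strand cannot be told apart.

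**Figure D5:**
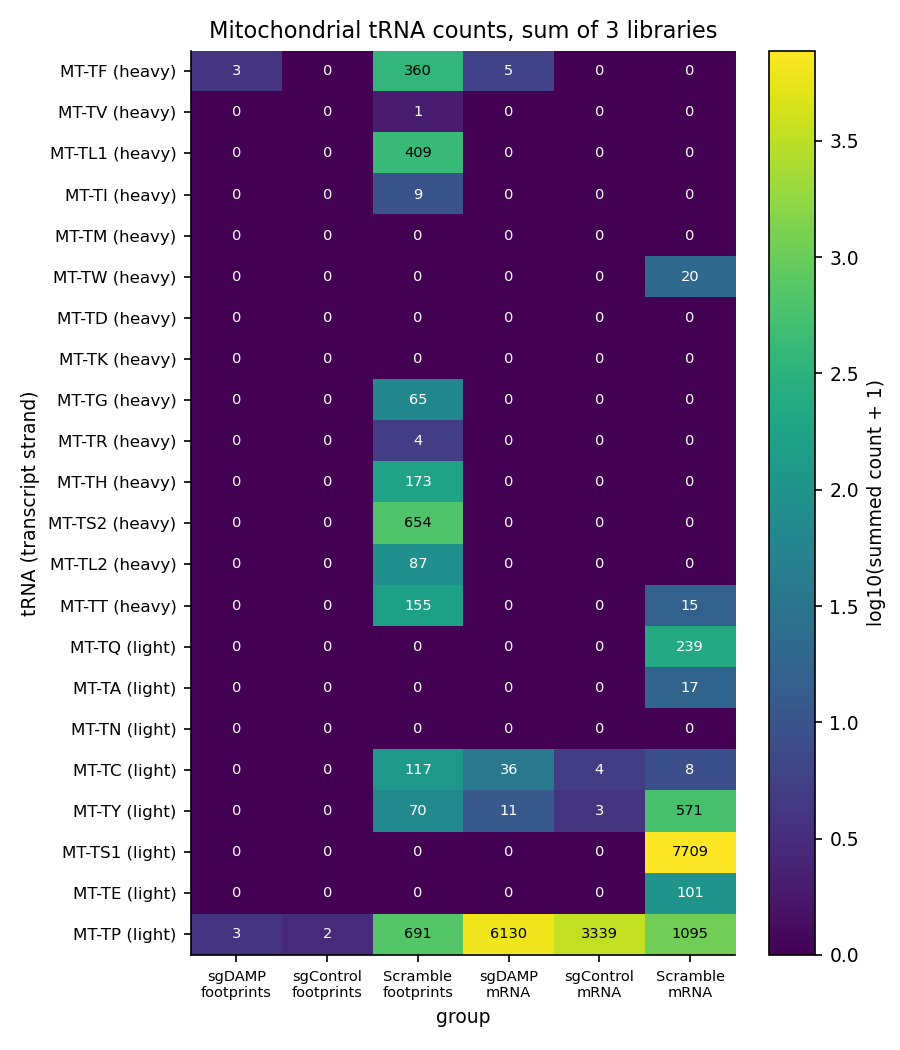
Summed counts of each of the 22 mitochondrial tRNAs in the 6 groups of 3 libraries (number in each cell; colour, log10 of the count plus 1), with tRNAs of the heavy transcript above those of the light one. Heavy-transcript tRNAs have counts above 30 only in Scramble footprints, and MT-TS1 and MT-TP hold most tRNA counts of the mRNA libraries.

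The nuclear partners of the 13 proteins gave opposite counts under the 2 scalings in Scramble cells. Under TMM, which calls 17.1% of all genes higher and 27.4% lower in footprints than in mRNA, 27 were higher and 1 lower of 36 tested nuclear subunits of complex I, 5 and 1 of 9 of complex III, 9 and 1 of 10 of complex IV and 17 and 0 of 17 of complex V. Under total counts, which call 3.33% of all genes higher and 90.4% lower, the counts were 5 higher and 22 lower for complex I, 0 and 9 for complex III, 1 and 5 for complex IV and 2 and 10 for complex V. The list medians for complexes I, III, IV and V were 1.55, 0.59, 2.05 and 1.70 under TMM, against 0.21 for the 13 mitochondrial mRNAs and -0.68 over all genes tested. Under total counts they were -1.26, -2.21, -0.83 and -1.07, against -2.87 for the 13 and -3.53 over all genes tested. The 4 list medians thus lay above those of the 13 and of all genes under both scalings, while their sign turned.

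COX8A, a small complex IV subunit, averaged 92.6 ± 50.3 CPM in footprints, against 14.9 ± 0.744 CPM in mRNA (SD, n = 3 each), with a log2 difference of 5.43 (SE 0.18) under TMM and 2.63 under total counts. NDUFB6 of complex I averaged 107 ± 58.4 CPM in footprints, against 33.1 ± 3.23 CPM in mRNA, at 4.49 (SE 0.19) and 1.68, and ATP5MF of complex V averaged 14.9 ± 5.97 CPM in footprints, against 8.07 ± 1.01 CPM in mRNA, at 3.74 (SE 0.33) and 0.87. All 3 were called higher under both scalings. UQCRB of complex III averaged 68.9 ± 40.8 CPM in footprints, against 151 ± 16 CPM in mRNA, and was higher under TMM at 1.65 (SE 0.19) but lower under total counts at -1.14.

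The factors of mitochondrial gene expression were mixed under TMM, which calls 17.1% of all genes higher and 27.4% lower. They were mostly lower under total counts, which call 3.33% of all genes higher and 90.4% lower, so the counts below are no result about these lists. Of 9 transcription genes 1 was higher and 1 lower under TMM, against 0 and 9 under total counts, with POLRMT lower in both at -1.61 (SE 0.39) and -4.42. Of 19 RNA processing genes 5 were higher and 4 lower under TMM, against 0 and 17 under total counts, and SLIRP had 3.20 (SE 0.18) under TMM and 0.36 under total counts, where it did not pass. Of 14 translation factors 5 were higher and 1 lower under TMM, against 0 and 13 under total counts. TUFM averaged 56.0 ± 28.6 CPM in footprints, against 225 ± 17.6 CPM in mRNA, and turned from higher at 0.80 (SE 0.20) under TMM to lower at -2.01 under total counts. Of 26 assembly factors 5 were higher and 4 lower under TMM, against 0 and 23 under total counts, and of 3 complex II genes 2 and 1, against 0 and 2. TFAM, LRPPRC and GFM1 did not pass under TMM, at -0.46, 0.34 and 0.03, and were lower under total counts, at -3.32, -2.51 and -2.79.

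Over the 18 libraries, the 5 genes whose log2(CPM + 1) followed the mean of the 13 mRNAs most closely were SOGA1 (Pearson r 0.979), SNPH (0.978), CPNE7 (0.978), DDX23 (0.977) and HIRIP3 (0.977), out of 8801 genes ranked. The 18 points fall into 6 groups of 3 that share assay, condition and depth, so the likeness is given as a description.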

How the data were processed

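Poly(A) mRNA and ribosome footprints of sgDAMP, sgControl and Scramble cells were analysed in 18 libraries. The deposited values are raw read counts per gene, which the authors made with Trimmomatic 0.30, HISAT2 2.1.0, SAMtools 1.10 and HTSeq 0.11.2 on GRCh38, per the submitters' processing notes. The sources used here do not give the strand setting, the annotation release or how multiply mapped reads were treated, so genes that overlap, genes with an antisense partner and genes with a near-identical nuclear copy are uncertain. The lines for unassigned reads stayed out of library sizes, at 22.2% to 24.2% of reads in sgDAMP and sgControl mRNA, 54.0% to 54.3% in Scramble mRNA, 65.8% to 70.0% in sgDAMP and sgControl footprints and 95.7% to 95.8% in Scramble footprints. Positions came from a RefSeq table of the same build, with 42045 of 61487 symbols matched.

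Genes were filtered with filterByExpr (minimum count 10), scaled by TMM and tested two-sided by edgeR 4.0.16 (quasi-likelihood F test, R 4.3.3, limma 3.58.1) at a Benjamini-Hochberg adjusted p under 0.05. All tests ran over the whole table, with the 2 groups compared, or 4 in the interaction. Footprints of sgDAMP and sgControl were summed, and genes with at least 30 summed footprints were compared by their ratio with an exact Clopper-Pearson 95% interval. Floors for a count of 0 are 3 counts over a group. Scripts were tested on simulated data.

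The 37 members and the nuclear lists were chosen with earlier results of these data known. Named were all 13 mRNAs, both rRNAs, the 5 tRNAs with most counts in each assay and any called tRNA, TFAM, POLRMT, LRPPRC, SLIRP, TUFM, GFM1, and from each list up to 4 called members by smallest p. Alternatives were size factors of DESeq2 1.42.0, total counts, TMM without the 37 members, other filters, the DESeq2 Wald test, a replicate block, and leaving out each library.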

Additional observations from a re-analysis of the deposited data

How the results depend on the processing

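Total-count scaling moved the median of all genes by 0.13 in mRNA, 0.22 in footprints of sgDAMP against sgControl and -2.85 in Scramble cells (log2). In Scramble cells it called 13530 genes, with 0 of the 13 mRNAs higher (against 3.33% of all genes tested) and 10 lower (against 90.4%). There it turned MT-ND6 to -0.88, MT-CYB to -2.10, MT-ND4 to -2.12, MT-ND1 to -1.33 and MT-CO3 to -2.87. It brought 1 of the 13 (MT-ATP8) to a ratio of 2 in footprints and turned MT-RNR1 to 0.07 in the interaction. Requiring 10 counts in every library called 1143 genes in Scramble cells, with 4 of the 13 lower, and turned MT-CYB to -0.09, MT-ND4 to -0.04 and MT-CO3 to -0.75. With no filter 4 of the 13 were lower there, and 14 genes were called in mRNA of sgDAMP against sgControl, where the DESeq2 Wald test called 21. None of these 14 or 21 was among the 13 mRNAs. DESeq2 size factors and TMM without the 37 members changed no count of calls by more than 1.5 times. In Scramble cells, shares of all genes called in each direction were computed only for the main fit and total counts. Counts of the 13 called there under other settings are therefore no result about them.

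Leaving out 1 library at a time gave 0 to 6 called genes in mRNA (6 without sgControl replicate 3), 0 to 1 mRNAs past a ratio of 2 in footprints and 2 to 6 of the 13 lower in Scramble cells. In single genes the sign turned within -0.52 to 1.75 for MT-ATP8 and -0.16 to 0.38 for MT-RNR1 in mRNA, -0.31 to 0.04 for MT-ND6 and -0.31 to 0.23 for MT-RNR1 in the interaction. In Scramble cells it did so within -1.38 to 0.09 for MT-CO1, -0.43 to 0.44 for MT-CO3 and -1.65 to 0.49 for MT-ATP8. The cause of these changes was not tested.

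Taking the sgDAMP and sgControl footprint libraries as replicates, although in most genes they differ by no more than sampling noise on average, edgeR called 6957 genes, with 10 of the 13 mRNAs higher, and 451 genes in the interaction. Samples with the same replicate number did not consistently deviate together. Between sgDAMP and sgControl mRNA, replicate 1 did so, with a correlation of 0.517, while replicates 2 and 3 gave -0.376 and -0.581. Between the Scramble assays the correlations were -0.023 to -0.129. With the replicate number as a block, edgeR called 0 genes in mRNA, 6965 in footprints with 10 of the 13 higher, 93 in the interaction and 4704 in Scramble cells, where 6 of the 13 were higher and 2 lower as without it. For these footprint fits, with or without the block, the share of all tested genes called higher was not computed. The 10 of 13 therefore cannot be judged against it. With 4 summed footprints and 344 summed mRNA counts, the ratio of MT-ATP8 in Scramble cells had a wide counting interval (0.228 to 2.17).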

Other observations

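Nuclear copies of mitochondrial sequence held counts in every group. Reads dropped for matching both a copy and its gene would not show in these counts. Of 404 such copies in the tables, 49 had a count in sgDAMP footprints, 53 in sgControl footprints and 42 in Scramble footprints, and their summed counts came to 5.45%, 5.30% and 7.96% of the count of the 13 mRNAs. In mRNA libraries 14, 10 and 17 copies had a count, and the sums came to 1.36% in sgDAMP, 1.42% in sgControl and 1.99% in Scramble cells. MTATP6P1 alone held 14976 counts in sgDAMP mRNA, 14965 in sgControl mRNA and 8806 in Scramble mRNA, which is 27.9%, 27.1% and 31.2% of the MT-ATP6 count. MTND4P12 held 1091 footprints in sgDAMP, 841 in sgControl and 167 in Scramble cells, 14.26%, 12.97% and 11.7% of the MT-ND4 count, but 3, 4 and 6 counts in mRNA libraries of the same conditions. MTND5P11 held 1082, 926 and 110 footprints in sgDAMP, sgControl and Scramble cells, 4.27%, 3.87% and 3.89% of the MT-ND5 count, and 1, 0 and 2 counts in mRNA.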
